A study of Homo sapiens with 8 samples.

Results

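The 8 miRNA arrays of this study carried probes for 1887 human miRNAs, and 272 of them have a name from miR-3000 to miR-3999, with any letter or arm suffix and without miR-3125. These 272 were set by a rule on names, made with earlier results of these data known. No reason is given for leaving out miR-3125. They are miRNAs that entered the catalog late, after the well-studied families had been numbered. RNA came from PC-3, a long-established human cell line derived from prostate cancer, exposed for 24 h to 1 of 4 treatments. These were the solvent DMSO, luteolin at 60 µM, gefitinib at 60 µM, and luteolin plus gefitinib at 60 µM each. Luteolin is a flavonoid of food plants, and gefitinib blocks the kinase of the epidermal growth factor receptor. Each treatment had 2 arrays. Their titles call them biological replicates, the series design speaks of duplicate runs, and neither says whether they came from separate cultures, so p-values measure only the spread between these arrays, which may be technical.

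A miRNA is cut from a folded precursor, the hairpin, whose 5p and 3p arms can each give a mature strand. The mature strand guides a silencing complex to messenger RNAs, mostly through its seed, the bases 2 to 8 from the 5′ end, so miRNAs with the same seed can share targets. Many hairpins lie inside other genes, and some entries with high numbers were found by deep sequencing at low abundance or lie at other non-coding RNA genes. Such entries can be hard to tell from fragments of those RNAs.

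Mature sequences were taken from the RefSeq tables of build GRCh38.p14, which matched 237 of the 272 names, with the seed in capitals. The first set is shown because detection of these miRNAs began or ended with a drug. miR-3617-5p lies at chr20:45705150-45705171 on the minus strand within WFDC13, miR-3621 at chr9:137169236-137169255 on the minus strand within LRRC26, and miR-3937 at chrX:39661276-39661298 on the plus strand. miR-3158-5p has one copy on each strand within DPCD, at chr10:101601429-101601449 and chr10:101601465-101601485. miR-3945 lies at chr4:184851066-184851088 on the minus strand within MIR3945HG, miR-3935 at chr16:56245577-56245598 on the plus strand within GNAO1, and miR-3692-5p at chr6:157529137-157529160 on the plus strand within ZDHHC14. Overlap with a gene was read without regard to strand or exons.
miR-3617-5p: aAAGACAUaguugcaagauggg
miR-3621: cGCGGGUCggggucugcagg
miR-3937: aCAGGCGGcuguagcaauggggg
miR-3158-5p: cCUGCAGAgaggaagcccuuc
miR-3945: aGGGCAUAggagaggguugauau
miR-3935: uGUAGAUAcgagcaccagccac
miR-3692-5p: cCUGCUGGucaggaguggauacug
miR-3610 and miR-3667-5p belong to the same set. No pair of the sequences printed here shares a seed.

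The second set was detected on every array and passed the test in at least 1 drug group. miR-3940-5p lies at chr19:6416470-6416489 on the minus strand within KHSRP, and miR-3152-3p at chr9:18573350-18573371 on the plus strand within ADAMTSL1. miR-3907 lies at chr7:151433526-151433547 on the minus strand within CRYGN, and miR-3132 at chr2:219549117-219549140 on the minus strand within TMEM198 and OBSL1.
miR-3940-5p: gUGGGUUGgggcgggcucug
miR-3152-3p: uGUGUUAGaauaggggcaauaa
miR-3907: aGGUGCUCcaggcuggcucaca
miR-3132: uGGGUAGAgaaggagcucagagga
miR-3195 and miR-3960 belong to this set too. The seed of miR-3940-5p is also that of miR-4507, and the seed of miR-3132 is also that of miR-197-5p. Both of these other miRNAs were detected on all 8 arrays. Among the 237 members with a sequence, 6 seeds occurred in 2 or more members, and for 0 of these seeds were 2 or more of the members detected on any array.

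Across all 1887 miRNAs the scanner software detected between 395 and 481 per array. Signals below are total signals per miRNA in linear units of intensity, scaled to the 75th percentile of each array over the 365 miRNAs detected on all 8 arrays. That percentile ran from 60.5 to 92.7 before scaling. The epithelial miRNAs miR-200a-3p, miR-200b-3p and miR-429 were detected on all 8 arrays, while miR-200c-3p, miR-141-3p and miR-203a were detected on none and miR-205-5p on 6. Of 13 markers of blood, muscle, liver, neuron, fibroblast and endothelium, 12 were detected on no array and miR-142-3p on 1.

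To find which of the late-annotated miRNAs could be measured in PC-3 cells, detection as given by the scanner software was counted first. Of the 272, 53 (19.5%) were detected on at least 1 array, 31 (11.4%) on all 8, 22 on some, and 219 on none. The share detected on any array was 32.5% of the 1003 miRNAs with smaller numbers or named let-7, 24.2% of the 500 from miR-4000 to miR-4999, and 18.9% of the 111 from miR-5000 upward. The shares detected on all 8 arrays were 24.0%, 16% and 10.8% in these ranges. These shares describe one cell line and were not tested.

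The 2 DMSO arrays detected 45 and 39 members, the luteolin arrays 48 and 36, the gefitinib arrays 48 and 48, and the arrays of both drugs 44 and 37. On both arrays of a group, the DMSO group had 39 detected members, luteolin 36, gefitinib 47 and the combination 36, and 50 met this condition in at least 1 of the groups. The first array detected more members than the second in every group except gefitinib. With luteolin, 12 members were detected on the first array alone and 0 on the second alone, whereas with gefitinib it was 1 on each.

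**Figure D1:**
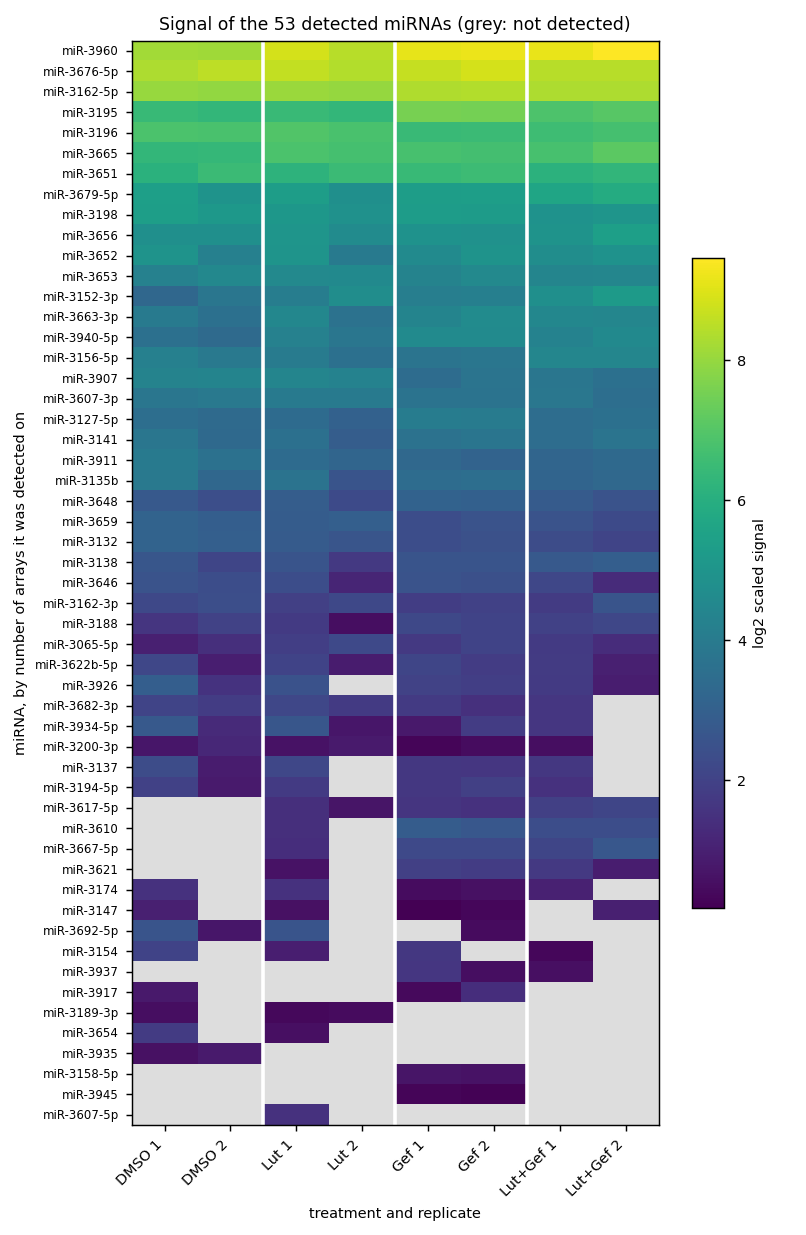
Scaled signal on a log2 color scale of the 53 detected miRNAs (rows, ordered by the number of arrays with detection) on the 8 arrays (columns, 2 per treatment). Grey marks no detection, and the 31 miRNAs detected everywhere form the block at the top.

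The replicate error differed between the groups. Over the 31 members detected everywhere, the median difference between the arrays of a group was 0.25 on the log2 scale for the DMSO pair, 0.36 for luteolin, 0.08 for gefitinib and 0.24 for the combination. Differences above 2-fold occurred in 1 member with DMSO, in 5 with luteolin, and in 0 with gefitinib and with both drugs. The mean squared difference was 0.637 times what the scanner's error estimate gives for the gefitinib pair, and 3.20, 6.78 and 2.08 times for DMSO, luteolin and both drugs. The gefitinib arrays therefore differed by less than the measurement error. They may be 1 sample, so no SD is given for them, and each count of calls against DMSO is given also with their average as 1 sample, a choice made after seeing the data.

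The members with the largest signals in DMSO-treated cells are given to show the range of the measurements, since probes differ in brightness and their signals do not rank amounts of RNA. Mean signals over the DMSO arrays (± SD, n = 2) were 345 ± 40.2 for miR-3676-5p, 288 ± 6.71 for miR-3960, and 256 ± 9.84 for miR-3162-5p. They were 112 ± 3.22 for miR-3196, 83.4 ± 5.67 for miR-3195, 81.8 ± 0.989 for miR-3665, and 80.1 ± 15.3 for miR-3651. miR-3676 is encoded at a transfer RNA gene and miR-3651 at a small nucleolar RNA gene, SNORA84. Below these came miR-3198 at 38.6 ± 4.74, miR-3679-5p at 36.7 ± 8.78 and miR-3656 at 28.1 ± 0.0689. The members that a drug brought into or out of detection had scaled signals between 1.17 and 7.29, near the lower end of the scale, where an undetected miRNA was set to a floor of 0.609 before the log2.

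Of these 10 members, 6 had a sequence. The 4 richest in G are shown, a choice made after their base composition was seen. miR-3162-5p lies at chr11:59595127-59595149 on the minus strand within OSBP, miR-3196 at chr20:63238788-63238805 on the plus strand within BIRC7, miR-3665 at chr13:77698075-77698092 on the minus strand within SLAIN1, and miR-3679-5p at chr2:134127130-134127152 on the plus strand within MGAT5.
miR-3162-5p: uUAGGGAGuagaaggguggggag
miR-3196: cGGGGCGGcaggggccuc
miR-3665: aGCAGGUGcggggcggcg
miR-3679-5p: uGAGGAUAuggcagggaagggga
G made up 56.5% of the bases of miR-3162-5p, 55.6% of miR-3196, 61.1% of miR-3665 and 52.2% of miR-3679-5p. It made up 50% of miR-3198 and 29.2% of miR-3651, the other two with a sequence. Sequences were matched for only 77.4% of the 31 members detected everywhere, so a comparison of base composition between detected and undetected members is void.

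For 65 hairpins of the range both arms were on the array. Both DMSO arrays detected 0 arms in 50 of them, 1 arm in 14 and both arms in 1. The detected arm was the 5p arm in 9 of the 14 and the 3p arm in 5. The hairpin with both arms detected was miR-3162, whose 3p arm had signals of 4.59 and 5.28 on the DMSO arrays.

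To see which members appear with a drug, those detected on no DMSO array and on both arrays of a drug group were listed. The probes of all these members gave dim signals. Their spots carried some signal also where the software made no detection call, so ratios are given of the scaled mean signal over the 30 spots, called the spot signal below. In the group without detection this signal was not called above background, so these ratios describe the spots and are not fold changes of the miRNA. Spots flagged as outliers by the scanner software, 2.82% to 3.89% of those on an array, were left out of it. Log2 fold changes of the total signal set an undetected array to the floor, depend on that floor, and exceeded the change of the spot signal for most of these members. Gefitinib brought 7 members into detection, both drugs 4, and luteolin 1. Over all 1887 miRNAs the same happened to 1.11% with gefitinib, 0.583% with both drugs and 0.053% with luteolin. These shares include the members, and with luteolin the 1 member was the only miRNA. The 3 drug groups share the DMSO arrays.

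miR-3610 was detected on neither DMSO array, with luteolin at 2.66 on the first array only, with gefitinib at 7.29 and 6.52, and with both drugs at 5.22 and 5.21. All 4 arrays with gefitinib lay above the single luteolin value. The spot signal was 3.27-fold that of DMSO with gefitinib and 2.45-fold with both drugs. In the limma fit of the total signal the log2 fold changes were 3.50 (SE 0.64, adjusted p = 0.0288) and 3.10 (SE 0.64, adjusted p = 0.0342).

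miR-3667-5p followed with signals of 4.69 and 4.71 under gefitinib and of 4.29 and 6.45 under both drugs, against 2.63 on the first luteolin array and no detection on the second or on the DMSO arrays. The spot signal was 2.83-fold that of DMSO for gefitinib and 3.22-fold for both drugs. The fit gave log2 fold changes of 2.95 (SE 0.66, limma adjusted p = 0.0469) and 3.11 (SE 0.66, limma adjusted p = 0.0370). These 2 miRNAs were the only members on this list with most of their 30 spots well above background on both gefitinib arrays.

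miR-3621 had signals of 3.83 and 3.53 with gefitinib, 3.27 and 1.87 with both drugs and 1.55 on the first luteolin array. It was not detected elsewhere. Its spot signal was 1.66-fold that of DMSO with gefitinib and 1.47-fold with both drugs. In the fit of the total signal it was called with gefitinib (limma adjusted p = 0.0288) and missed the threshold with both drugs (limma adjusted p = 0.0520).

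miR-3617-5p was the only member that appeared in all 3 drug groups. It was detected on neither DMSO array and had signals of 2.67 and 1.62 with luteolin, 3.04 and 2.85 with gefitinib, and 3.78 and 4.38 with both drugs. The arrays of both drugs lay above those of gefitinib, and the luteolin arrays lay lowest. The spot signal was 1.52-fold, 1.60-fold and 2.18-fold that of DMSO, so on this measure luteolin and gefitinib lay close together. The log2 fold changes of the total signal were 1.77, 2.27 and 2.74, each with an SE of 0.25, at limma adjusted p of 0.0262, 0.00586 and 0.00234. Luteolin plus gefitinib against luteolin gave a difference of 0.97 (SE 0.25, limma adjusted p = 0.168).

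The remaining 3 members appeared with gefitinib alone. miR-3158-5p had signals of 1.63 and 1.53 there and no detection on the other 6 arrays (limma adjusted p = 0.00326), and its DMSO spot signal was too close to 0 for a fold. miR-3945 had signals of 1.23 and 1.17 and again no detection on the other arrays (limma adjusted p = 0.00660), but its spot signal was only 1.08-fold that of DMSO. miR-3937 had signals of 3.12 and 1.43 with gefitinib and 1.46 on the first array of both drugs. Its spot signal with gefitinib was 1.54-fold that of DMSO, and it missed the threshold (limma adjusted p = 0.0899).

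Vanishing members, those detected on both DMSO arrays and on no array of a drug group, were fewer. miR-3935 had signals of 1.51 and 1.82 with DMSO and was not detected on any of the other 6 arrays. The spot signal was 2.47-fold lower with luteolin, 1.91-fold lower with gefitinib and 3.51-fold lower with both drugs. The total signal, at the floor in all 3, gave limma adjusted p of 0.00589, 0.00401 and 0.00294. miR-3692-5p had signals of 6.07 and 1.68 with DMSO, 5.96 on the first luteolin array, 1.34 on the second gefitinib array, and no detection with both drugs. The DMSO arrays themselves thus spanned most of the range of this miRNA, and the difference with both drugs, 2.45-fold on the spot signal, did not pass the test (limma adjusted p = 0.274). Luteolin and gefitinib each made 1 member vanish and both drugs 2, against 0.371%, 0.265% and 1.06% of all 1887 miRNAs.

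**Figure D2:**
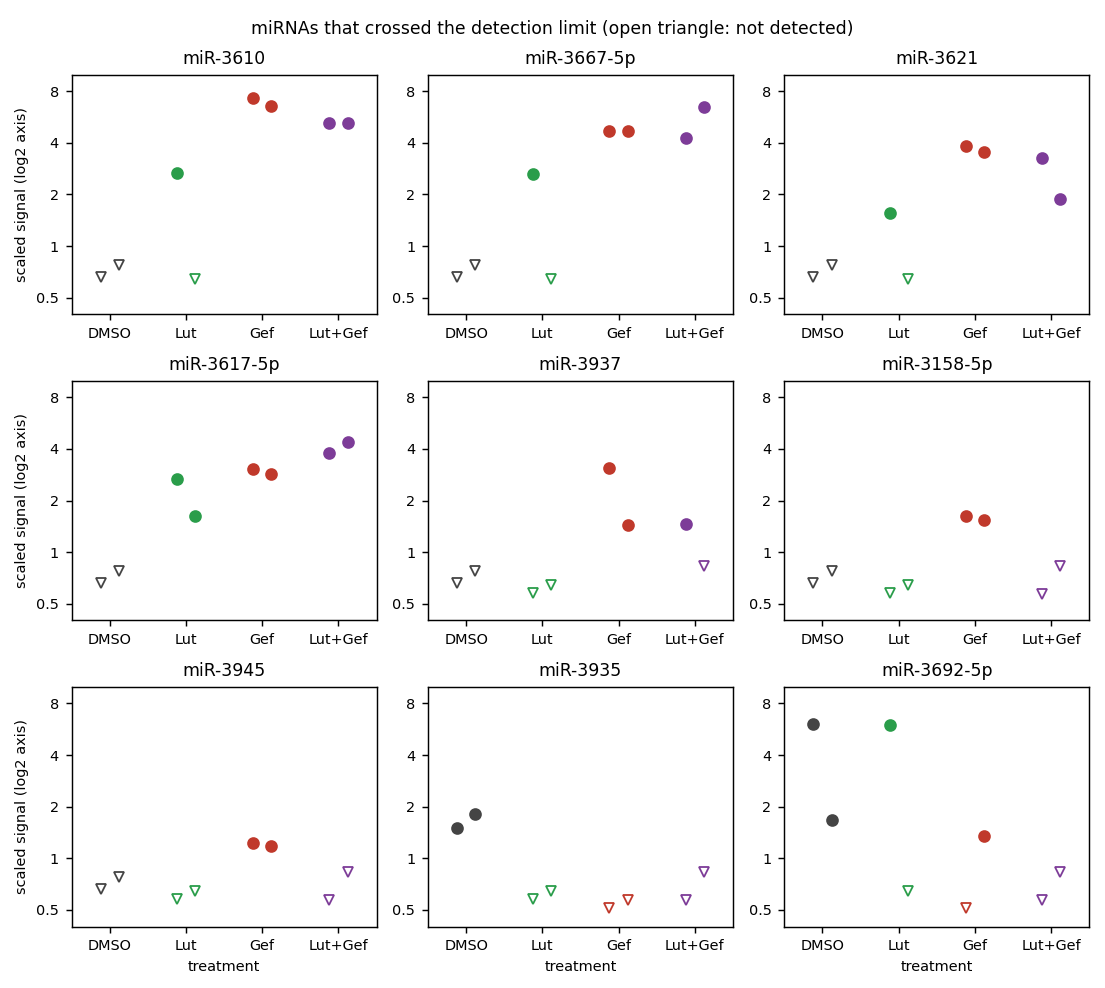
Scaled signal on a log2 axis of the 9 members that appeared or vanished, on the 2 arrays of each treatment. Filled circles are detected signals, and open triangles stand at the lowest signal detected on an array where the member itself was not detected. miR-3610 and miR-3667-5p have detected signals on all 4 arrays with gefitinib and on 1 luteolin array, and miR-3935 has detected signals with DMSO alone.

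Where both arrays of a group stood at the floor, their spread was 0 by construction, and the SE is too small. The background-subtracted signal of the spots, which has a value on every array, was therefore read beside the detection calls. For the fit it was scaled and raised to a floor of 1, which only the dimmest arrays reached. The mean over the unflagged spots of miR-3610 was 4.17 and 2.67 with DMSO, 5.02 and 3.16 with luteolin, 14.8 and 13.6 with gefitinib, and 10.3 and 7.19 with both drugs. The 4 arrays with gefitinib lay above the rest, but detection on them put this miRNA on the list, so this is no separate evidence. The members described here were listed for crossing the detection limit and entered the fit only through the groups where they were detected, so the p-values on this measure describe the listed members and are not independent evidence of a change. miR-3610 gave 1.73 with gefitinib and 1.32 with both drugs on the log2 scale (limma adjusted p = 0.00848 and 0.0161). miR-3621 gave 0.73 with gefitinib and 0.56 with both drugs (limma adjusted p = 0.0283 and 0.0501). miR-3158-5p gave 1.38 with gefitinib (limma adjusted p = 0.00476), but both of its DMSO arrays stood at the floor of 1 here too, so this p again follows from a floor and not from a replicate spread.

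Of the other calls of these members against DMSO, those of miR-3617-5p and miR-3935 with both drugs passed on the spot signal, and the rest did not. miR-3945 had spot means of 4.32 and 1.53 with DMSO against 4.23 and 3.74 with gefitinib, and its difference was 0.27 (limma adjusted p = 0.874). Before scaling, one DMSO array of miR-3945 thus lay above both gefitinib arrays, although the software detected the miRNA on the gefitinib arrays alone. miR-3667-5p gave 1.54 with gefitinib and 1.70 with both drugs (limma adjusted p = 0.117 and 0.0724). miR-3617-5p gave 1.13 with both drugs (limma adjusted p = 0.0107), and its differences of 0.69 with gefitinib and 0.61 with luteolin did not pass (limma adjusted p = 0.0683 and 0.318). miR-3935 gave −1.83 with both drugs (limma adjusted p = 0.0104), −1.34 with luteolin and −0.93 with gefitinib (limma adjusted p = 0.114 and 0.103).

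The number of flagged spots differed between the groups. For miR-3610 they numbered 0 and 1 of 30 on the DMSO arrays, 4 and 4 with gefitinib and 5 and 5 with both drugs. With these spots kept in the mean, a choice added after seeing the data, its log2 fold changes were 2.33 and 2.24. For miR-3156-5p, detected on all 8 arrays, they numbered 1 and 1 with DMSO and 6 and 6 with both drugs. With all spots both drugs gave it a rise of 2.004 on the log2 scale (SE 0.225, limma adjusted p = 0.00264), and without the flagged ones a log2 fold change of 0.37 (SE 0.205, limma adjusted p = 0.302). The reason for the bright single spots was not tested.

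**Figure D3:**
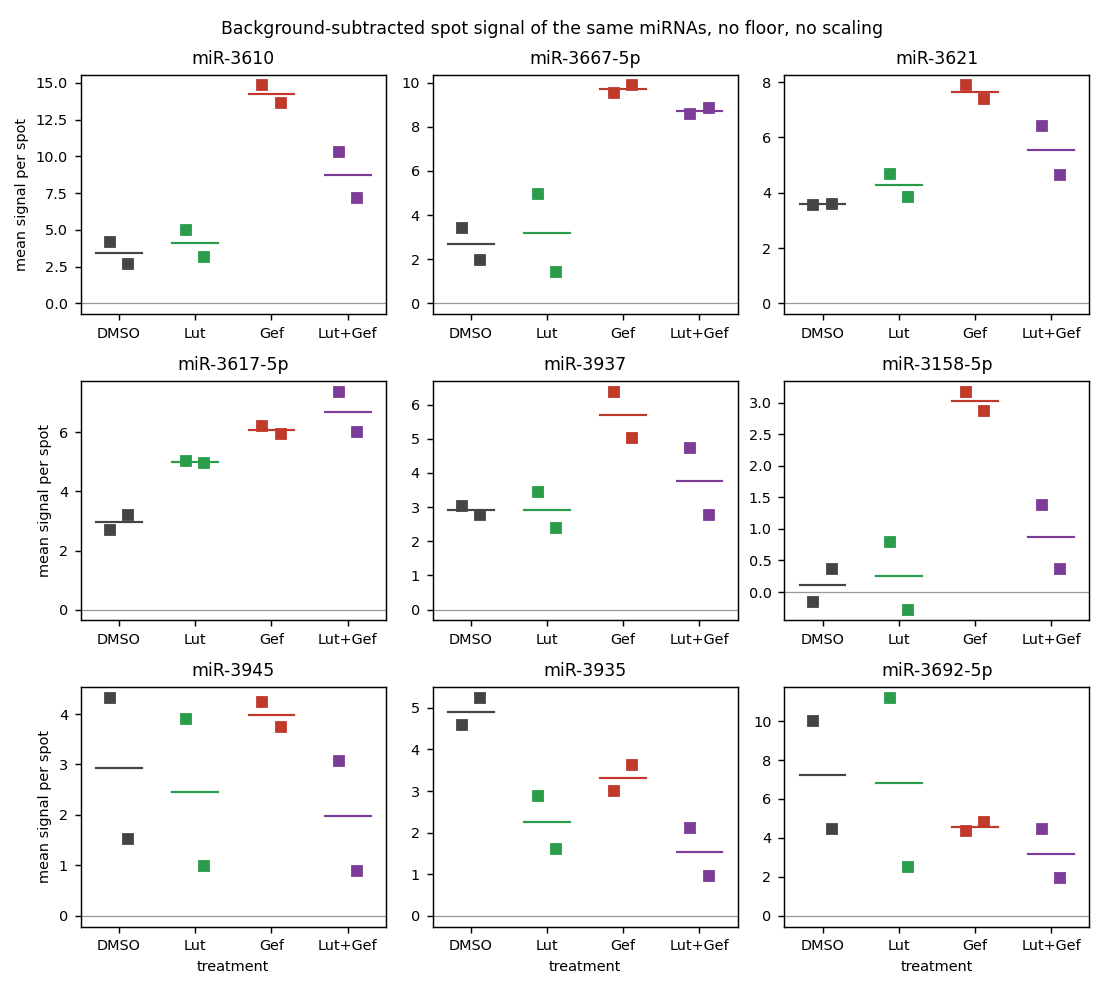
Background-subtracted signal in linear units, averaged over the unflagged spots of each of the same 9 members and not scaled between arrays. Squares are arrays and lines the mean of the 2 arrays, with a separate axis for each miRNA. The gefitinib arrays of miR-3610 lie at 14.8 and 13.6 against 4.17 and 2.67 with DMSO, while a DMSO array of miR-3945 at 4.32 lies above its gefitinib arrays at 4.23 and 3.74.

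The question of each drug against DMSO was then put to the 480 miRNAs that at least 1 group had on both of its arrays, among them 50 members. With luteolin, limma called 2 members, or 4% of those tested, against 2.08% of all tested miRNAs. miR-3617-5p was the only 1 of the 480 tested miRNAs called higher (0.208%), and miR-3935 was called lower (1.88% of all tested). Both were at the floor in 1 of the groups compared and entered the fit through the group where they were detected, so neither call measures a replicate error. Among miRNAs detected on all 8 arrays, 0 of the 31 members and 0.548% of the 365 were called. The spot signal called 0 of the 50 members and 1.46% of all tested miRNAs. Of the 50, 8 had an unadjusted p under 0.05 on the total signal and 7 on the spot signal. The split of 1 to 1 became 0 to 1 without scaling and 1 to 0 with quantile normalization. With the gefitinib arrays taken as 1 sample, 1 member was called, miR-3935.

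With gefitinib, 4 of the 31 members detected on all 8 arrays were called, against 9.59% of the 365 miRNAs with that detection. They were miR-3195, miR-3940-5p and miR-3960, which rose, and miR-3907, which fell. Over all 50 tested members limma called 11, or 22%, against 12.1% of all tested miRNAs. The 9 called higher compare with 7.5% and the 2 called lower with 4.58%. Of the 11, 7 were at the floor in 1 of the groups, as described above, so nothing is read from the share of 22%. The spot signal called 7 members, against 10.4% of all tested miRNAs, which were these 4 with miR-3610, miR-3621 and miR-3158-5p. With the gefitinib arrays taken as 1 sample, 3 members were called, miR-3158-5p, miR-3945 and miR-3935, each of them at the floor in 1 of the groups.

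miR-3195 had signals of 87.4 and 79.4 with DMSO, 88.6 and 80.8 with luteolin, 188 and 185 with gefitinib, and 118 and 131 with both drugs. The gefitinib arrays lay highest and the arrays of both drugs came next, with no overlap, while DMSO and luteolin overlapped. The log2 fold change was 1.16 with gefitinib (SE 0.14, limma adjusted p = 0.00639) and 0.58 with both drugs (SE 0.14, limma adjusted p = 0.0520). The difference between both drugs and gefitinib, −0.59, did not pass (limma adjusted p = 0.102, 95% interval −0.93 to −0.25 before adjustment).

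miR-3940-5p, reported elsewhere as a regulator of cyclin D1, had signals of 12.2 and 10.5 with DMSO, 19.1 and 14.0 with luteolin, 24.7 and 24.5 with gefitinib, and 19.4 and 24.2 with both drugs. All 6 drug arrays lay above the DMSO arrays. It rose with gefitinib by 1.12 (SE 0.21, limma adjusted p = 0.0306) and with both drugs by 0.94 (SE 0.21, limma adjusted p = 0.0436), and its difference of 0.53 with luteolin did not pass (limma adjusted p = 0.566).

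miR-3960, a miRNA known from bone-forming cells, had signals of 292 and 283 with DMSO, 468 and 355 with luteolin, 559 and 583 with gefitinib, and 572 and 706 with both drugs. Here too all 6 drug arrays lay above the DMSO arrays. It rose with gefitinib by 0.99 (SE 0.19, limma adjusted p = 0.0309) and with both drugs by 1.14 (SE 0.19, limma adjusted p = 0.0180), and luteolin gave 0.50 (limma adjusted p = 0.496).

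miR-3907 fell with gefitinib. Its signals were 19.9 and 20.6 with DMSO, 20.9 and 19.7 with luteolin, 11.1 and 13.3 with gefitinib, and 14.3 and 12.1 with both drugs. The 4 arrays with gefitinib lay below the 4 without it. The log2 fold change was −0.74 with gefitinib (SE 0.16, limma adjusted p = 0.0411) and −0.62 with both drugs (SE 0.16, limma adjusted p = 0.0650).

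With luteolin plus gefitinib, 4 of the 31 members detected on all 8 arrays were called, against 10.4% of the 365 miRNAs. These were miR-3940-5p, miR-3960 and miR-3152-3p, which rose, and miR-3132, which fell. Over all 50 tested members limma called 8, or 16%, against 12.1% of all tested miRNAs, and 4 of the 8 were at the floor in 1 of the groups. The 6 called higher and the 2 called lower each compare with 6.04% of all tested miRNAs in that direction. The spot signal called 10 members, 5 higher and 5 lower, against 16.7% of all tested miRNAs. It added miR-3907 (−0.66, limma adjusted p = 0.0352), miR-3659 (−0.65, limma adjusted p = 0.0438) and miR-3917 (−0.87, limma adjusted p = 0.0438), and left out miR-3667-5p. Of the arrays compared, the software had detected miR-3917 on 1 DMSO array only, at 1.75. This miRNA entered the fit through gefitinib, and its total signal gave a limma adjusted p of 0.454. Quantile normalization turned the split of 6 to 2 into 8 to 1. With the gefitinib arrays taken as 1 sample, 2 members were called, miR-3617-5p and miR-3935.

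miR-3152-3p had signals of 9.75 and 14.3 with DMSO, 17.3 and 26.4 with luteolin, 17.58 and 18.04 with gefitinib, and 27.7 and 37.3 with both drugs. The arrays of both drugs lay above the other 6. It rose with both drugs by 1.45 (SE 0.30, limma adjusted p = 0.0339), and gave 0.86 with luteolin and 0.59 with gefitinib (limma adjusted p = 0.444 and 0.318).

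miR-3132 had signals of 8.68 and 7.83 with DMSO, 7.16 and 6.13 with luteolin, 5.20 and 5.56 with gefitinib, and 4.99 and 4.23 with both drugs. The groups followed this order without overlap. It fell with both drugs by 0.84 on the log2 scale (SE 0.16, limma adjusted p = 0.0268), and gave −0.62 with gefitinib and −0.32 with luteolin (limma adjusted p = 0.0708 and 0.660).

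**Figure D4:**
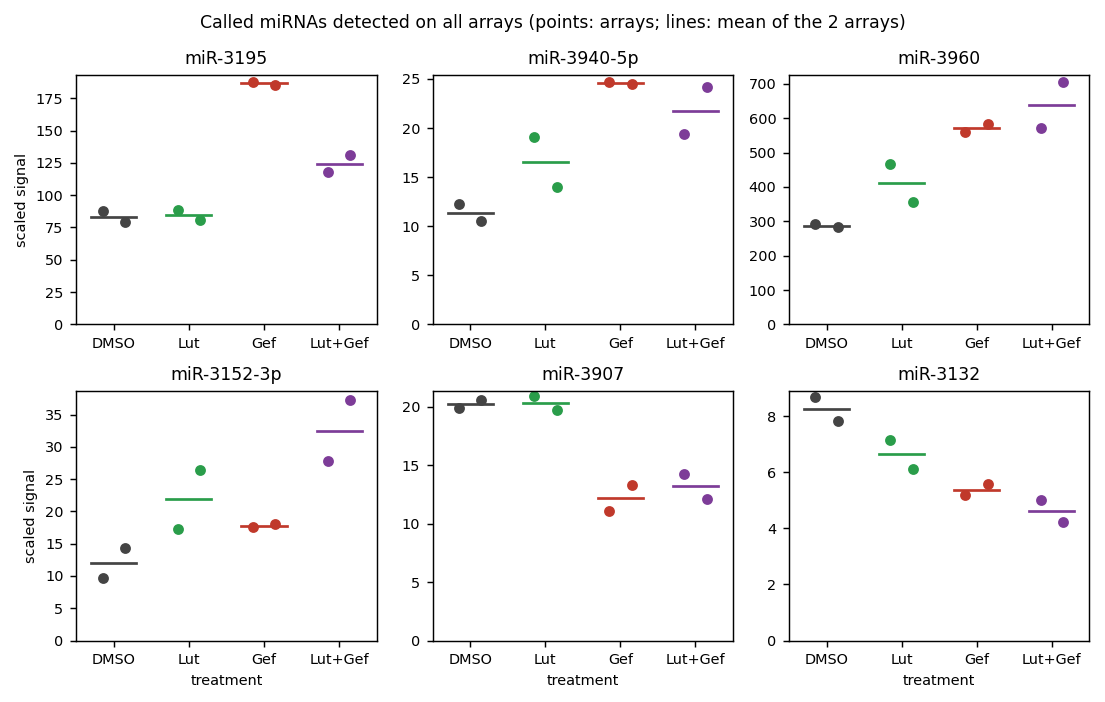
Scaled signal in linear units of the 6 members detected on all 8 arrays that passed the test in at least 1 drug group. Points are arrays, lines the mean of the 2 arrays of a treatment, and every axis starts at 0. miR-3195 is highest with gefitinib at 188 and 185, and miR-3152-3p with both drugs at 27.7 and 37.3.

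The calls rest on few arrays. Leaving out 1 array at a time, 16 of the 23 called values lost the threshold in at least 1 fit, 0 turned sign, and 7 kept it in every such fit. Those 7 were miR-3935 in all 3 drug groups, miR-3158-5p with gefitinib and in both drugs against gefitinib, miR-3945 with gefitinib, and miR-3617-5p with both drugs. All 7 set a group at the floor against a detected one, and the floored group had no spread in any of these fits, so their keeping the threshold is no sign of stability. The count for gefitinib was 12 without either luteolin array and 3 to 5 without any other array, DMSO arrays included. The count for both drugs was 10 without either luteolin array, 7 without the first array of both drugs, and 2 or 3 without any of the other arrays. The count for luteolin was 4 without the second luteolin array, 2 without the first luteolin or the first DMSO array, and 1 without any of the other arrays. Both drugs against luteolin gave 4 calls without the first luteolin array and 0 or 1 without any other array, and both drugs against gefitinib gave 1 without the first gefitinib array and 2 or 3 otherwise.

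The question whether both drugs together differed from either drug alone gave few calls. Against luteolin, limma called 0 of 50 members, while 1.88% of all tested miRNAs were called, 1.25% higher and 0.625% lower. Of the 50, 12 had an unadjusted p under 0.05, and the methods' t-test after Benjamini-Hochberg adjustment also called 0, as did the spot signal (11 with an unadjusted p under 0.05) and normexp followed by quantile normalization (12). With the flagged spots kept, the spot signal called 5. For miR-3610 this difference on the total signal was 2.03 (SE 0.64, limma adjusted p = 0.214), and for miR-3960 it was 0.64 (SE 0.19, limma adjusted p = 0.202).

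Against gefitinib, limma called 2 members for both drugs, or 4%, and 4.58% of all tested miRNAs, 1.04% higher and 3.54% lower. Both members were called lower. These were miR-3158-5p, whose log2 difference was −1.37 (SE 0.12, limma adjusted p = 0.00305), and miR-3945 with −0.98 (SE 0.12, limma adjusted p = 0.00880). Each was detected on both gefitinib arrays and stood at the floor on both arrays of both drugs, so these SE and p follow from the floor. On the spot signal miR-3158-5p gave −1.23 (SE 0.169, limma adjusted p = 0.0109), with one array of both drugs again at the floor of 1, and miR-3945 gave −0.97 (SE 0.723, limma adjusted p = 0.763). For miR-3940-5p, detected on all 8 arrays, the difference of −0.19 had a 95% interval from −0.71 to 0.34, and for miR-3960 the difference of 0.16 had one from −0.32 to 0.63. The effect of gefitinib with luteolin present differed from its effect without luteolin for 3 of the 50 members (6%), against 3.33% of all tested miRNAs, and on the spot signal for 0 of the 50, against 0.417%, with 3 at an unadjusted p under 0.05. All 3 calls set a single group against the floor.

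Over the 31 members detected on all 8 arrays, the median log2 fold change was 0.00 with luteolin, 0.18 with gefitinib and 0.09 with both drugs. The 365 miRNAs of any number with detection on every array had medians of −0.09, −0.11 and −0.13. Positive values were found in 16, 22 and 19 of the 31. These medians moved with single arrays and with the scaling. Without DMSO replicate 2 the gefitinib median of the members turned to −0.07, and without scaling it was 0.55. The median for both drugs turned to −0.12 with the 75th percentile over the detected miRNAs of each array and was 0.18 without DMSO replicate 1. The luteolin median was −0.15 without DMSO replicate 2, −0.12 without the first luteolin array and 0.14 without the second. Below 2-fold lay 31 of the 31 with luteolin, 29 with gefitinib and 29 with both drugs.

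**Figure D5:**
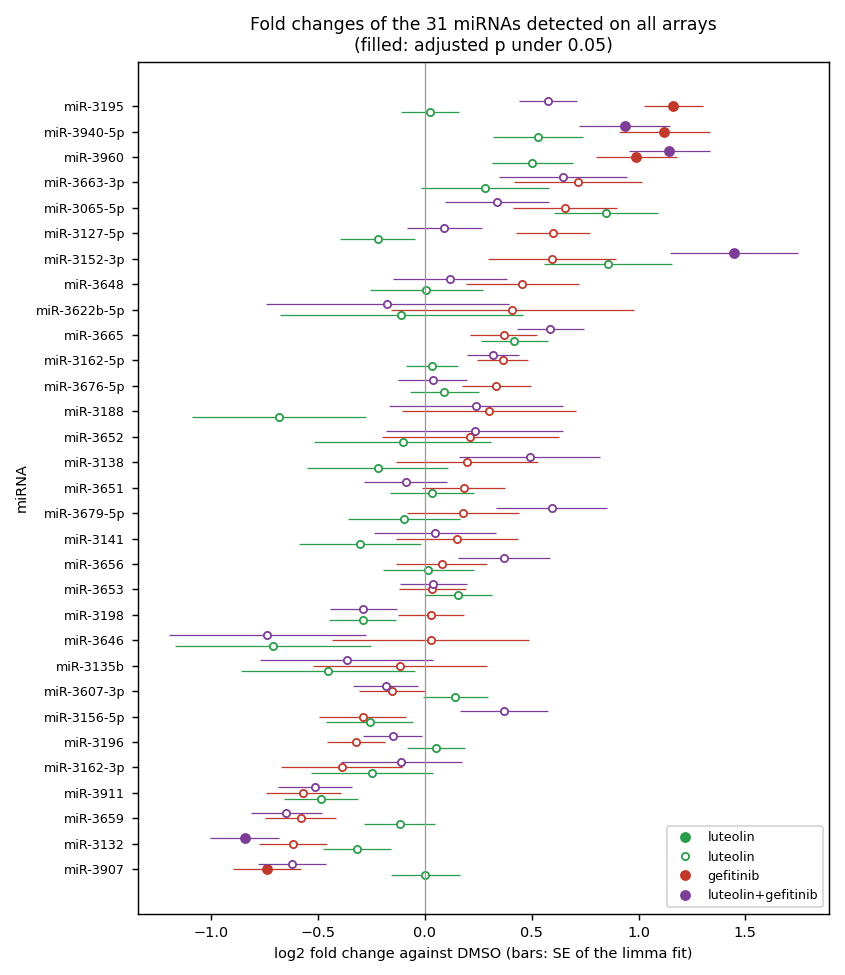
Log2 fold change against DMSO (horizontal axis) of the 31 members detected on all 8 arrays, ordered by the gefitinib value, with bars for the SE of the limma fit. Filled circles have an adjusted p under 0.05 and open circles do not. miR-3195 is highest with gefitinib at 1.16 and miR-3907 lowest at −0.74.

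Several members varied little over the 8 arrays. The highest array was under 1.5 times the lowest for 7 of the 31 and over 2 times for 15. miR-3653, encoded at a small nucleolar RNA gene, ran from 19.1 to 23.7 (1.24-fold), and miR-3162-5p from 249 to 336 (1.35-fold). miR-3651 ran from 69.4 to 93.8 (1.35-fold). At the other end stood miR-3152-3p (3.83-fold) and miR-3188 (3.19-fold), whose lowest signal was 1.44 on the second luteolin array.

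A list from general knowledge held 8 members on the array at genes of small nucleolar, ribosomal or transfer RNAs. Of these, 6 were detected on at least 1 array and 5 on all 8. Members within long non-coding RNA genes were not on it, such as miR-3945 within MIR3945HG, which was called with gefitinib. Only the 5 listed members detected on all 8 arrays were tested. None of these was called by limma in any comparison, which for so few members is near the 2.08% to 12.1% of all tested miRNAs called in the drug groups. miR-3676-5p, at a transfer RNA gene, ran from 316 to 463 over the arrays, and miR-3648, at the ribosomal RNA repeat, from 4.81 to 8.47. A second list from general knowledge held 8 members, the arms of 4 hairpins opposite a miRNA gene of another name. Of these 8, 1 was detected, miR-3065-5p, which lies opposite miR-338. The paired copies of miR-3158 were not on this list. The signals of miR-3065-5p were 2.001 and 2.678 with DMSO, 3.75 and 4.62 with luteolin, 3.24 and 4.10 with gefitinib, and 3.33 and 2.58 with both drugs. The arrays of both single drugs lay above the DMSO arrays, and the differences of 0.85 and 0.66 did not pass (limma adjusted p = 0.2995 and 0.174). On the spot signal they were 0.16 with luteolin and −0.03 with gefitinib, where the direction turned.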

How the data were processed

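Total RNA of PC-3 cells was labelled with Cy3 and hybridized to 1-colour Agilent human miRNA arrays, 2 per treatment. Each array was extracted on its own by the authors with Agilent Feature Extraction 10.7.3.1, and the deposited files carry no normalization between arrays (the study's methods relate levels to DMSO afterwards). The deposited values are therefore background-subtracted intensity on a linear scale. The files give a total intensity per miRNA, which the software sets to 0.1 for an undetected miRNA, and carry 30 spots for each one. The series table, whose spot intensity equals that of the scanner files, served as an alternative. The number of arrays limits the precision.

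Members were matched by name among the 1887 miRNAs. The totals were scaled to the 75th percentile over the 365 miRNAs detected on all 8 arrays, raised to at least 0.609 (each array's dimmest detected scaled signal was taken, and then the median of the 8) and put on the log2 scale. The 480 miRNAs that at least 1 group had on both of its arrays were fitted together with limma 3.58.1 (lmFit and eBayes, two-sided, 4 residual degrees of freedom, prior worth 1.66) in R 4.3.3, in 4 groups. Benjamini-Hochberg adjustment ran over these 480 per comparison, and an adjusted p under 0.05 was a call. The fit was run on simulated data for miRNAs detected on all 8 arrays, with equal spread in every group and no floor. That run does not cover calls at the floor or groups of unequal spread. Figures were drawn with Python 3.11.15 and matplotlib 3.10.9.

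Named were all members called against DMSO or between both drugs and 1 drug, all that appeared or vanished, the 10 with the highest DMSO signal, and members of the lists. A few were named for their small or large range after their values were seen. The members, lists and tests were chosen with earlier results of these data known. Alternatives changed the scaling (none, median, quantile, or the 75th percentile over the detected miRNAs of each array), the spot summary (leaving out spots the software flagged as outliers), normexp in place of the software's background subtraction (offset 50) followed by quantile normalization, the filter, the floor (1, or 16 added to the signal), the test, and the arrays used. In the fit of both gefitinib arrays as 1 sample, a lone array is assumed to vary like the other groups. Samples were grouped by the treatment in their labels, and none was left out.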

Additional observations from a re-analysis of the deposited data

Results flagged for a closer look

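The effect of gefitinib with luteolin present was set against its effect without luteolin, by an interaction term in the same limma fit that was added after seeing the data. It passed for 3 of the 50 members (6%), against 3.33% of all tested miRNAs. Each of the 3 stood at the floor on both arrays of 3 of the 4 groups and entered the fit only through the remaining group, so its SE and p follow from the floor and are no measure of the replicate error. For miR-3158-5p it was −1.37 on the log2 scale (SE 0.168, limma adjusted p = 0.0167): gefitinib alone gave signals of 1.63 and 1.53, and the miRNA was detected on no other array. For miR-3945 it was −0.98 (SE 0.167, limma adjusted p = 0.0419), with signals of 1.23 and 1.17 under gefitinib alone. For miR-3935 it was 1.44 (SE 0.199, limma adjusted p = 0.0222), and since all 6 drug arrays stood at the floor, this value is the distance of the DMSO signal to the floor. On the spot signal the same differences were −1.23 (SE 0.239) for miR-3158-5p, −0.42 (SE 1.02) for miR-3945 and 0.43 (SE 0.418) for miR-3935, and none passed (limma adjusted p = 0.0847, 0.984 and 0.984). The difference between the gefitinib effects is therefore not shown for any of the 3.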

How the results depend on the processing

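Of the 23 called values, 0 turned sign under any of the 24 alternatives and left-out arrays, and 0 stayed past the threshold under every one that tested them. The number of members called moved as follows from 2 with luteolin, 11 with gefitinib, 8 with both drugs, 0 for both drugs against luteolin and 2 for both drugs against gefitinib. Without scaling it was 1 with luteolin and 4 with both drugs. With quantile normalization it was 1 with luteolin and 2 for both drugs against luteolin, and the 1 luteolin call was a rise, where it was a fall without scaling. With the 75th percentile over the detected miRNAs of each array it was 1, 4 and 3 in the 3 drug groups. Without a filter it was 1, 4 and 1, and over miRNAs detected on all arrays alone 0, 4 and 4, with 0 for both drugs against gefitinib. The spot mean and the series table each gave 0 with luteolin, 7 with gefitinib and 1 for both drugs against gefitinib, and normexp followed by quantile normalization gave 0, 6 and 1. With the outlier-flagged spots kept, added after seeing the data, the spot mean gave 0 with luteolin, 13 with both drugs and 5 for both drugs against luteolin. A floor of 1 gave 0 with luteolin and 1 for both drugs against gefitinib, and adding 16 gave 0 with luteolin, 1 for both drugs against luteolin and 1 for both drugs against gefitinib. Fits of only the groups compared gave 0 with luteolin and 4 with both drugs. Student's t-test on the same log2 values, at a Benjamini-Hochberg adjusted p under 0.05, gave 0 and 1. With the gefitinib arrays as 1 sample, added after seeing the data, the counts were 1, 3 and 2 in the 3 drug groups, 0 for both drugs against luteolin and 2 for both drugs against gefitinib.

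Leaving out 1 array at a time, the counts ran from 1 to 4 with luteolin, from 3 to 12 with gefitinib, from 2 to 10 with both drugs, from 0 to 4 for both drugs against luteolin and from 1 to 3 for both drugs against gefitinib. Replicate differences were correlated between DMSO and luteolin (0.908), DMSO and both drugs (0.409) and luteolin and both drugs (0.461), but not with gefitinib (−0.135 to 0.0652), so the numbers were not taken to pair all groups. With the replicate number as a block the counts were 1, 9, 7, 0 and 2. The block lost the calls of miR-3617-5p with luteolin, of miR-3667-5p and miR-3907 with gefitinib, and of miR-3667-5p and miR-3940-5p with both drugs. Relative to the values reported, leaving out the scaling moved the median of all miRNAs by 0.37 on the log2 scale with gefitinib and 0.15 with luteolin, and the percentile over detected miRNAs moved it by −0.21 with both drugs and 0.16 with gefitinib.

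Detection was also counted only where most spots of at least 1 probe of a miRNA were well above background. Then 0 members vanished with any drug and 0 appeared with luteolin or both drugs. With gefitinib 3 appeared, miR-3610 and miR-3667-5p again and miR-3188, which the software had detected on all 8 arrays. Counting detection on at least 1 array as detected gave 5 that appeared and 2 that vanished with luteolin, 3 that vanished with gefitinib, and 5 that vanished with both drugs. Without 1 array, 1 to 5 members appeared and 1 to 5 vanished with luteolin, 7 to 10 appeared and 1 to 3 vanished with gefitinib, and 4 to 5 appeared and 2 to 7 vanished with both drugs. Leaving out the second luteolin array brought the luteolin appearances to 5, and leaving out the first brought the losses to 5. Losses with both drugs came to 7 without the first array of that group and to 5 without the second DMSO array, and losses with gefitinib to 3 without the second DMSO array and 2 without the second gefitinib array. Appearances with luteolin came to 2 without the first DMSO array, and losses to 2 without the second. Near the detection limit a missing detection call is no measure of absence in the cell.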
